A study of Ovis aries with 2 samples.

Results

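The genes named SPINK in the deposited single-cell table are SPINK4, SPINK5, SPINK7 and SPINK9, 4 rows among 18161 genes. They were taken by name, so a SPINK gene listed under a LOC name would be missed. The cells came from the skin of 3-day-old Hu sheep lambs with straight wool and with curly wool. Skin of 3 lambs was pooled for each wool type, follicle and whole-skin suspensions were mixed, and each pool gave 1 library on the 10x Genomics platform. A library therefore stands for a pool and not for a lamb, the age is the same in both groups, and no test between wool types was possible. Every interval below is a 95% interval that covers counting error only.

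SPINK proteins carry Kazal domains, small folds that block serine proteases by sitting in their active site. SPINK5 encodes LEKTI, which is cut into fragments that inhibit the kallikrein-related peptidases KLK5, KLK7 and KLK14 in the outer epidermis, where these enzymes cut the corneodesmosomes that hold dead cells together, and its loss causes Netherton syndrome in people. SPINK9 is known from human palm and sole epidermis as an inhibitor of KLK5, SPINK7 from stratified epithelia such as that of the oesophagus, and SPINK4 mostly from goblet cells of the gut.

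The straight library held 6452 cells with 57956122 UMIs (a UMI marks 1 captured RNA molecule) and the curly library 7585 cells with 77634565 UMIs, at medians of 7373.5 and 7495 UMIs per cell. A total of 70 barcodes occurred in both libraries. Cells were clustered without the SPINK genes, so that none of their values shaped the groups. The 20 clusters were joined by marker genes into 13 named classes, each called "-like", and 4 clusters that stayed unnamed, and 16 of these 17 groups had at least 25 cells in each library. A level is the sum of a gene's UMIs in a group divided by all UMIs of that group, scaled to a total of 1000000 UMIs and given as CPM. The reads come from transcript ends, so levels are compared here between groups of cells and not between genes.

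SPINK4 had 16707 UMIs in straight and 15902 in curly cells, SPINK5 7636 and 25235, SPINK7 7997 and 8081, and SPINK9 2852 and 1321. Relative to the whole library SPINK4 stood at 288 and 205 CPM, SPINK5 at 132 and 325, SPINK7 at 138 and 104, and SPINK9 at 49.2 and 17.0. Over all cells the log2 ratio of curly over straight was -0.49 for SPINK4, 1.30 for SPINK5, -0.41 for SPINK7 and -1.53 for SPINK9. SPINK5 and SPINK9 thus lay past 2-fold, as did 10.2% of all 13196 genes with at least 100 UMIs. The libraries differ in their shares of cell classes, so the values within classes follow.

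**Figure D1:**
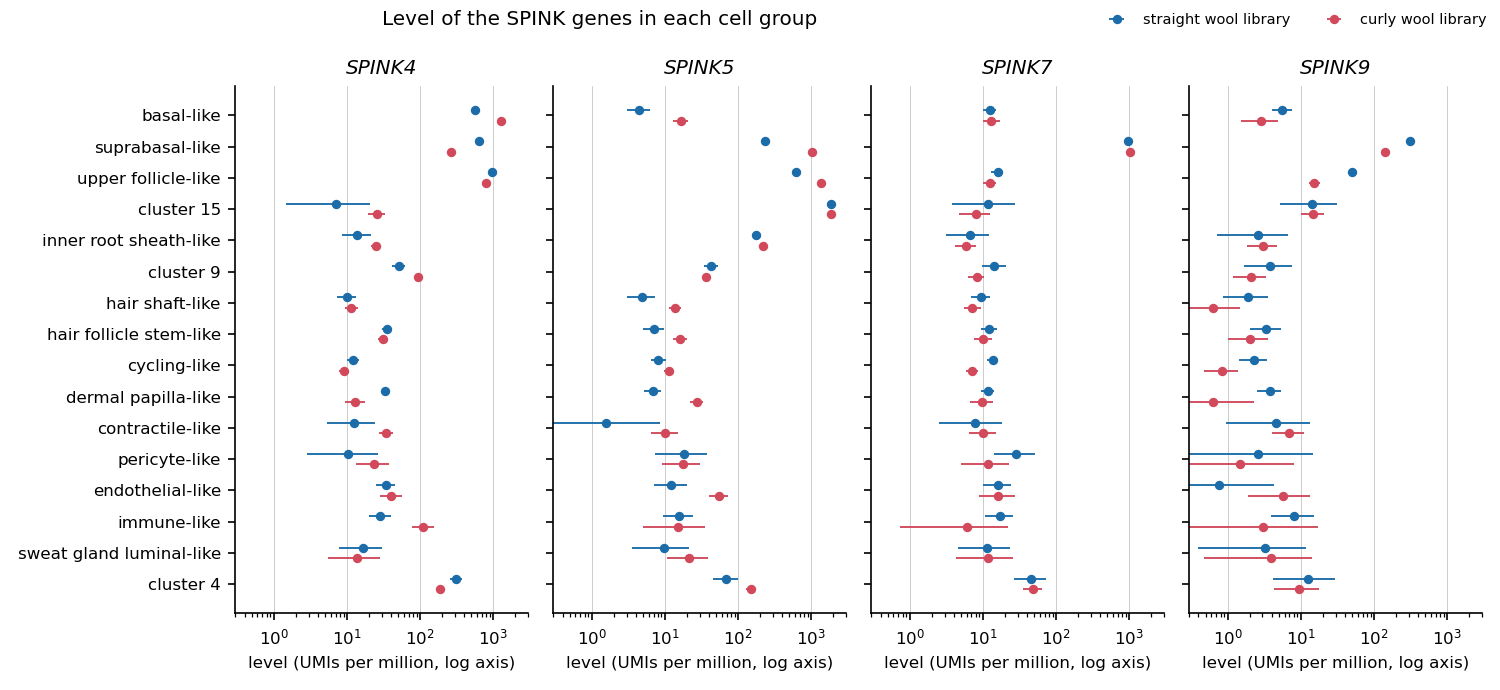
Level of each SPINK gene (CPM, log axis, points) in the 16 cell groups with at least 25 cells in each library, with exact Poisson 95% intervals (bars), for the straight and the curly wool library. SPINK4 was highest in basal, suprabasal and upper follicle cells, SPINK5 in cluster 15, upper follicle, suprabasal and inner root sheath cells, and SPINK7 and SPINK9 in suprabasal cells.

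SPINK4 was high in 3 keratinocyte classes, and its highest class was the upper follicle in the straight and the basal epidermis in the curly library. In basal interfollicular epidermis-like cells (893 straight and 557 curly cells, led by genes such as POSTN, FST and FGFBP1) its level was 556 CPM (540 to 573) in straight and 1275 (1243 to 1309) in curly cells. In upper follicle-like cells (563 and 661 cells, led by KRT79 and CST6) the levels were 967 (944 to 990) and 792 (772 to 811), and in suprabasal interfollicular epidermis-like cells (654 and 607 cells, led by KRT1, KRT10, FLG and CNFN) 632 (614 to 650) and 265 (253 to 277). The suprabasal class also held cells rich in basal keratins. Its basal markers summed to 31415 and 23871 CPM, against 19600 and 27970 in the basal class. The order of these 3 classes was upper follicle, suprabasal, basal in straight cells and basal, upper follicle, suprabasal in curly cells, with no overlap of neighbouring intervals. Outside them SPINK4 reached 310 and 189 CPM in cluster 4, a group of shallow cells with a median of 671.5 and 773 UMIs, and 50.9 and 94.7 in cluster 9, led by KRT6A, LCN2 and GPX2. All other groups lay between 7.10 and 110 CPM.

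Among these groups SPINK5 had its highest level in cluster 15, a small group of 39 straight and 194 curly cells that is led by CDSN, KLK6, KLK7, KLK10 and PRSS27 and was given no name. There it stood at 1881 CPM (1752 to 2016) and 1871 (1815 to 1929). Upper follicle-like cells followed with 628 (609 to 647) and 1342 (1317 to 1367), and suprabasal cells with 234 (223 to 245) and 1035 (1012 to 1058). Inner root sheath-like cells, which form the sleeve that guides the growing wool fibre, were next with 177 (157 to 200) and 219 (208 to 231). This order was the same in both libraries, with no overlap between neighbours. In basal cells, where SPINK4 was high, SPINK5 stood at 4.40 and 16.7 CPM.

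SPINK7 was high in 1 class only among the 16 groups. Suprabasal cells held 91.7% of its UMIs in the straight and 91.8% in the curly library, at 975 CPM (953 to 997) and 1016 (993 to 1039). The next group, the shallow cluster 4, had 45.7 and 47.8, and the remaining 14 groups lay between 5.91 and 28.8 CPM, most with overlapping intervals. SPINK9 followed SPINK7, with 81.9% and 79.1% of its UMIs in suprabasal cells, at 311 (298 to 324) and 143 (135 to 152). Its second group was the upper follicle-like class, at 50.2 (45.1 to 55.8) and 15.4 (12.8 to 18.3).

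Few cells carried these sums. Of the SPINK7 UMIs 50% lay in 11 straight and 9 curly cells, with 562 and 965 UMIs in the richest cell. SPINK9 reached this share in 17 and 18 cells, SPINK5 in 58 and 128 cells, and SPINK4 in 162 and 119 cells. All 11 and all 9 of the SPINK7 cells were suprabasal-like, and none of them was among the highest 6% of doublet scores. The intervals above treat UMIs as independent draws, so for each of these genes they are narrower than the spread between cells. Intervals that do not overlap therefore rank the groups by counting error only. This matters most for SPINK7 and SPINK9, whose UMIs lay in the fewest cells.

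**Figure D2:**
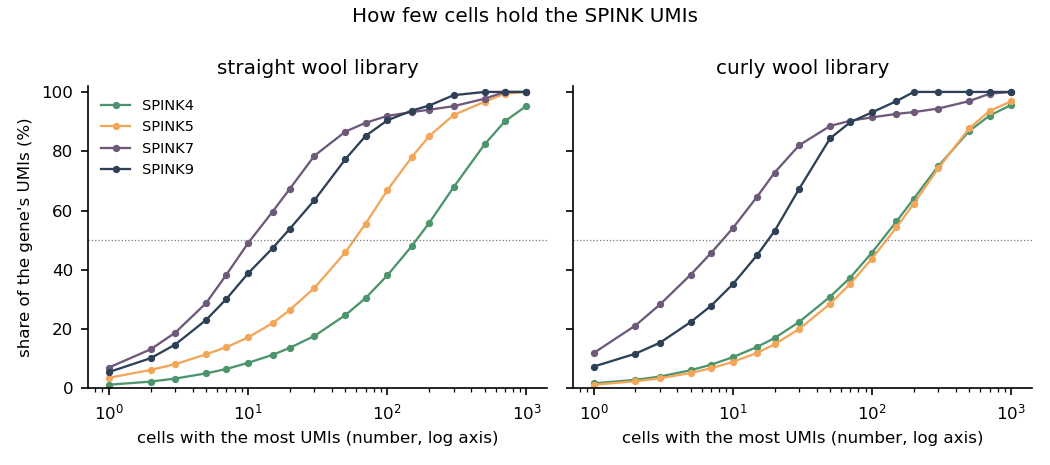
Cumulative share of each gene's UMIs (%) held by the cells with the most UMIs of that gene (number of cells, log axis), for the straight and the curly wool library; the dotted line marks 50%. The lines of SPINK7 and SPINK9 cross it at 9 to 18 cells and those of SPINK4 and SPINK5 at 58 to 162 cells.

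The share of cells with at least 1 UMI was taken as a second measure of where the genes are on. SPINK4 was found in 50.6% (straight) and 65.4% (curly) of basal, 66.8% and 61.1% of upper follicle-like and 64.4% and 45.5% of suprabasal cells, so that basal cells had the lowest of these shares in the straight and the highest in the curly library. SPINK5 was found in 66.7% and 81.4% of cluster 15, SPINK7 in 27.4% and 27.7% and SPINK9 in 21.7% and 14.0% of suprabasal cells. For SPINK5 the shares were 47.5% and 54.6% in inner root sheath-like and 19.6% and 41.9% in suprabasal cells, the reverse of its levels. Endothelial-like cells (192 and 167 cells), which should lack these genes, served as the measure of free RNA. Their shares were 6.77% and 8.38% for SPINK4, 4.69% and 8.38% for SPINK5, 10.4% and 8.38% for SPINK7, and 0.521% and 1.80% for SPINK9. Median depth was 5306 and 3820 UMIs in endothelial-like cells, against 7550 and 7213 in basal, 11957 and 10910 in suprabasal and 6804 and 3645 in cluster 15 cells. With every cell thinned to 2000 UMIs and shallower cells left out (596 and 580 suprabasal, 131 and 114 endothelial-like cells kept), SPINK7 was in 14.8% and 14.0% of suprabasal cells and in 1.53% and 4.39% of endothelial-like cells. SPINK9 was then in 11.7% and 7.93% of suprabasal cells and in 0% and 0.877% of endothelial-like cells, where 0 of 131 thinned cells allows a share of cells with a UMI of up to 2.29% by a limit of 3 counts and 2.78% by the exact interval. After thinning SPINK5 was in 22.6% and 27.2% of inner root sheath-like and in 10.7% and 30.0% of suprabasal cells.

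By the same measure several low levels could not be told apart from free RNA. In dermal papilla-like cells (1281 straight and 716 curly cells), the dermal cells that signal to the follicle, SPINK5 had 54 and 86 UMIs, or 6.80 and 27.2 CPM. That was 4.06% and 7.26% of cells with a UMI at median depths of 5976 and 4258.5 UMIs, below the 4.69% and 8.38% of endothelial-like cells. The richest curly dermal papilla-like cell held 16 of the 86 UMIs. After thinning the shares were 1.43% (0.834 to 2.28) and 4.24% (2.79 to 6.15) in dermal papilla-like and 0.763% (0.0193 to 4.18) and 5.26% (1.96 to 11.1) in endothelial-like cells, with overlapping intervals in both libraries. The endothelial-like intervals are wide, so the comparison cannot separate low expression from free RNA. The SPINK5 level itself was 12.3 and 54.4 CPM in endothelial-like cells, where 1 curly cell held 31 of the 47 UMIs. Basal cells had SPINK5 in 3.36% and 9.87% of cells, and in 0.714% and 4.24% after thinning, likewise within the endothelial interval.

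The mix of the SPINK genes differed widely between the keratinocyte classes. Among all UMIs of the 4 genes, SPINK4 made up 96.1% in straight and 97.5% in curly basal cells, and SPINK5 made up 98.3% and 97.5% in cluster 15 and 88.5% and 86.5% in inner root sheath-like cells. Upper follicle-like cells held SPINK4 and SPINK5, at 58.2% and 37.8% in straight and 36.6% and 62.1% in curly cells. Suprabasal cells held all 4 genes, with SPINK7 at 45.3% and 41.3%, SPINK4 at 29.4% and 10.8%, SPINK5 at 10.9% and 42.1% and SPINK9 at 14.4% and 5.82%. In dermal papilla-like cells the shares of SPINK4, SPINK5, SPINK7 and SPINK9 were 60.0%, 12.2%, 21.0% and 6.79% in straight and 25.6%, 53.8%, 19.4% and 1.25% in curly cells. Over all cells of a library they were 47.5%, 21.7%, 22.7% and 8.10% in straight and 31.5%, 49.9%, 16.0% and 2.61% in curly cells. Endothelial-like cells had 54.2%, 19.3%, 25.3% and 1.20% in straight and 34.7%, 46.5%, 13.9% and 4.95% in curly cells, from 83 and 101 UMIs in all. Neither of these classes thus showed the near pure SPINK4 or SPINK5 mix of basal cells, cluster 15 or inner root sheath-like cells.

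**Figure D3:**
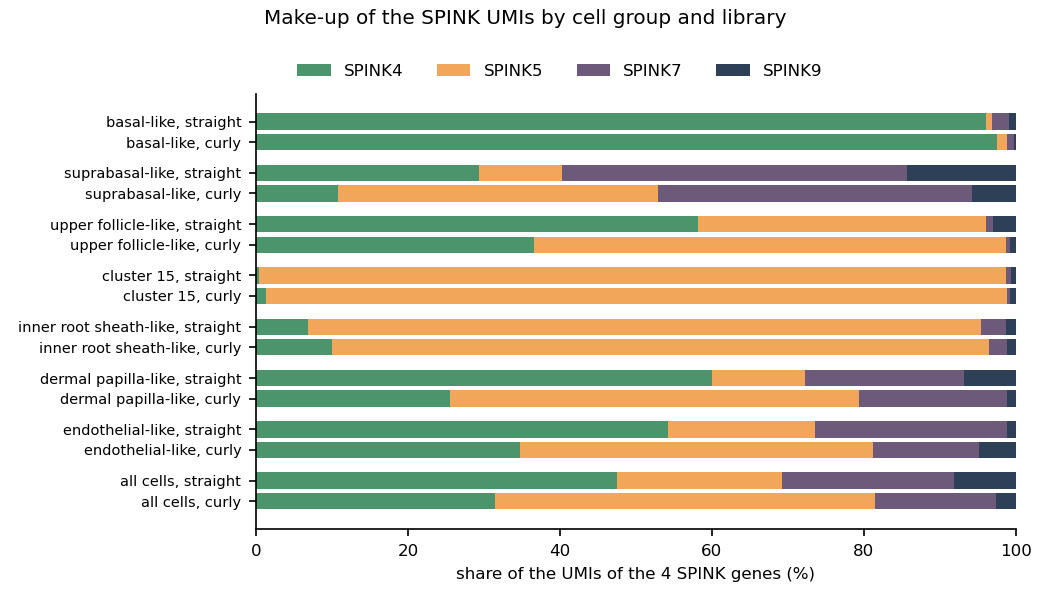
Share of the UMIs of the 4 SPINK genes that each gene made up (%, stacked bars) by cell group and library. Basal cells were almost all SPINK4, cluster 15 and inner root sheath-like cells almost all SPINK5, and suprabasal cells held all 4.

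The wool types were then compared within each class. SPINK4 was higher in curly than in straight basal cells by 2.29-fold, a log2 ratio of 1.20 (1.14 to 1.26), and lower in curly suprabasal cells, at -1.26 (-1.33 to -1.18). In upper follicle-like cells, the highest class of the straight library, the ratio was -0.29. SPINK4 was past 2-fold in basal cells, as were 5.27% of 7018 genes there, and in suprabasal cells, as were 9.86% of 7822 genes. The share of cells with SPINK4 moved the same way, from 31.9% (straight) to 47.6% (curly) in thinned basal and from 43.8% to 20.3% in thinned suprabasal cells. When the clusters were named at resolution 0.8 the suprabasal ratio of SPINK4 was -0.44, short of 2-fold, as most upper follicle-like cells then carried that name. With basal and suprabasal cells ordered by keratin share instead (below), neither end was past 2-fold for SPINK4. With 1 library per wool type these values describe the pools, and how much lambs differ is unknown.

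SPINK5 was past 2-fold higher in curly cells in 2 of the 4 groups with its highest levels. In suprabasal cells the log2 ratio was 2.14 (2.07 to 2.22) and in upper follicle-like cells 1.1 (1.05 to 1.15), while it was 0.30 (0.12 to 0.50) in inner root sheath-like cells (-0.49 as a mean over cells) and -0.01 (-0.12 to 0.10) in cluster 15. The first 2 lay past 2-fold, as did 9.86% and 8.10% of the genes of those classes. The last 2 did not, against 4.22% and 12.5% of genes. The upper follicle ratio fell short of 2-fold when clusters were named at resolution 0.8 (0.32), without integration (0.37) and as a mean over cells (0.83). The value of cluster 15 rests on single cells, since 1 of its 39 straight cells held 273 of 795 UMIs and the ratio was 0.51 without the richest cell of each library and -0.61 as a mean over cells. In dermal papilla-like cells, at a level not told apart from free RNA, the ratio was 2.00 (1.49 to 2.52), past 2-fold like 7.91% of genes there. SPINK5 in endothelial-like cells, at 63 UMIs too low for that count, had a ratio of 2.15 (1.30 to 3.07), where 6.69% of genes with enough UMIs were past 2-fold. Ratios at other low levels were 1.51 in hair shaft-like cells (4.85 and 13.8 CPM), 1.17 in hair follicle stem-like cells (7.18 and 16.2) and 1.14 in the shallow cluster 4 (68.5 and 151).

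The SPINK7 ratio depended on how the suprabasal class was drawn. It was 0.06 (0.01 to 0.11) in the class as a whole, short of 2-fold. At resolution 0.8, where the latest cells form a cluster of their own, it was -2.23 in the cells then named suprabasal, which took in most upper follicle-like cells, at 281 and 59.9 CPM, past 2-fold like 5.82% of 8106 genes, and -0.85 in the late cluster. SPINK9 was lower in curly cells, at -1.12 (-1.22 to -1.01) in suprabasal and -1.71 (-2.02 to -1.41) in upper follicle-like cells. Within a class another scaling (trimmed mean of M values, TMM) raised all ratios by 0.11 in basal, 0.17 in suprabasal, 0.25 in upper follicle-like and 0.29 in cluster 15 and inner root sheath-like cells. On that scale SPINK9 in suprabasal cells stood at -0.94, short of 2-fold, and SPINK4 there at -1.08. The SPINK9 ratio in upper follicle-like cells rests on 354 and 125 UMIs and was -0.32 at resolution 0.8, where the class held 3 and 5 UMIs, -0.12 without integration and -0.78 as a mean over cells. Without the cell richest in SPINK7 in each library its ratio in suprabasal cells was -0.02.

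**Figure D4:**
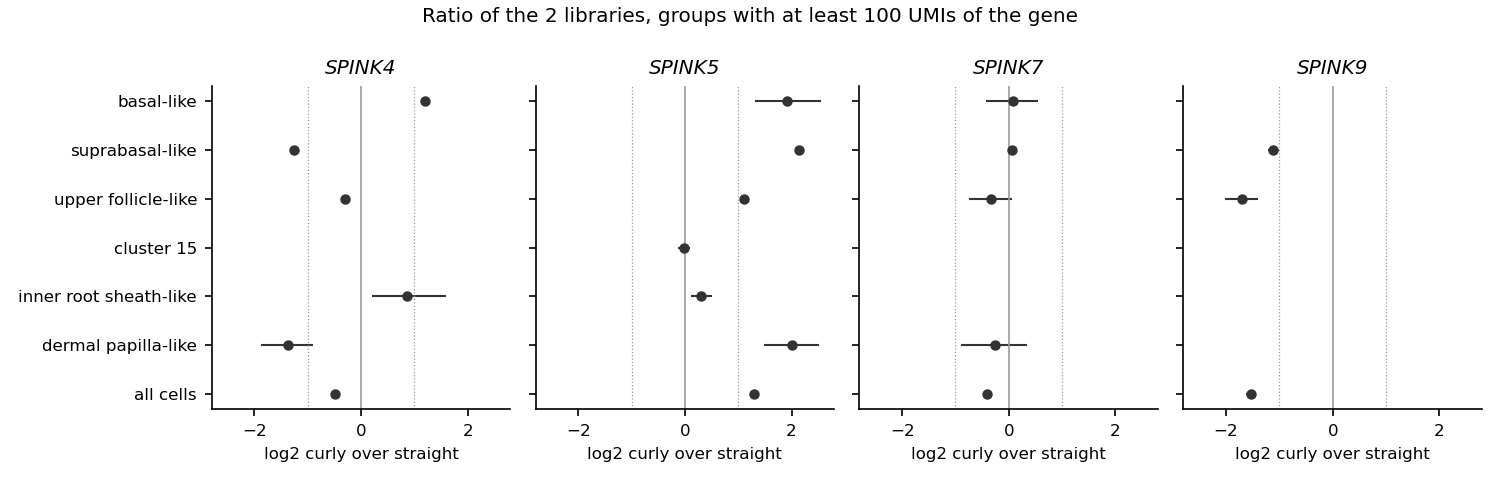
Log2 ratio of curly over straight level of each SPINK gene (points) with exact binomial 95% intervals (bars) in 6 cell groups and in all cells, where the gene had at least 100 UMIs; the solid line marks equal levels and dotted lines 2-fold. SPINK4 lay at 1.20 in basal and -1.26 in suprabasal cells, SPINK5 above 1 in suprabasal and upper follicle-like cells and also in basal and dermal papilla-like cells, where its levels were not told apart from free RNA, and SPINK9 below -1 in both classes shown.

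The suprabasal class spans several stages, and a finer clustering (resolution 0.8 in place of 0.3) showed where in it the genes lay. A cluster of 40 straight and 87 curly cells, led by S100A7A, FLG, CNFN and LOR and named late epidermis-like, held 58.7% of the straight and 85.3% of the curly SPINK7 UMIs. In it SPINK7 stood at 9145 and 5088 CPM, SPINK9 at 2382 and 382, SPINK5 at 2469 and 4268, and SPINK4 at 15.6 and 151. Of the 11 straight cells richest in SPINK7, 8 lay in this cluster, and of the 9 curly ones all 9. Within it SPINK9 was lower in curly cells by a log2 ratio of -2.64 (-2.79 to -2.49) and SPINK7 by -0.85 (-0.90 to -0.79), while SPINK5 was higher by 0.79 (0.70 to 0.88) and SPINK4, from 8 and 204 UMIs, by 3.27 (2.27 to 4.50). SPINK4 and SPINK9 were past 2-fold there, as were 14.9% of 1919 genes.

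The same clustering split SPINK4 and SPINK5 as well. In a suprabasal-like cluster of 302 and 377 cells led by KRT1, KRT10 and KRT2, SPINK4 stood at 667 and 203 CPM, SPINK5 at 68.2 and 376, SPINK7 at 272 and 47.8, a log2 ratio of -2.51 (-2.74 to -2.29), and SPINK9 at 100 and 14.9. SPINK4 also reached 774 and 616 CPM in cycling-like cells (206 and 106 cells, led by TOP2A, CDC20 and UBE2C) that the coarser clustering had counted with the suprabasal class. Most upper follicle-like cells joined a cluster with KRT1 and KRT79 among its leading genes (540 and 535 cells). There SPINK4 was level at 1043 and 1042, SPINK5 stood at 330 and 819 CPM and SPINK7 had a ratio of -2.04 (-2.21 to -1.88). This cluster also took in 69 straight and 33 curly cells of the suprabasal class. Its SPINK7 level was 286 and 69.3 CPM, against 15.9 and 12.5 in the whole upper follicle-like class. The SPINK7 ratio thus does not describe upper follicle-like cells. It also rests on few cells, since 3 straight cells held at least 220 of the 1782 straight UMIs each. The rest of the upper follicle-like cells formed a cluster of 97 and 162 cells led by CST6, PLA2G2F and KRT79. In it SPINK5 reached 1725 and 2149, a log2 ratio of 0.32 (0.25 to 0.38), SPINK4 551 and 313, and SPINK7 11.3 and 12.2. The difference of SPINK5 past 2-fold in the upper follicle was thus seen in the larger cluster and not in the smaller one.

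Cells of the basal and suprabasal classes were also ordered by the share of KRT1, KRT2 and KRTDAP UMIs among those of KRT1, KRT2, KRTDAP, KRT5 and KRT14, in 5 bins of equal width. The lowest bin held 1295 straight and 818 curly cells, the highest 156 and 271, and the 3 bins between them only 21 to 39 cells each, so that just the ends are compared. The lowest bin was thus larger than the basal class (893 and 557 cells) and took in part of the suprabasal class. From the lowest to the highest bin SPINK4 fell from 629 to 250 CPM in straight and from 925 to 141 in curly cells. Its level was higher in curly cells in the lowest bin and lower in the highest, short of 2-fold in both. SPINK5 went from 6.97 to 986 and from 14.0 to 2043, SPINK7 from 23.1 to 3953 and from 13.5 to 2025, and SPINK9 from 17.4 to 1122 and from 8.03 to 249. A total of 71 straight and 157 curly cells of the highest bin lay within 0.02 of its upper edge, and the bins are ranges of a score and not cell types.

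**Figure D5:**
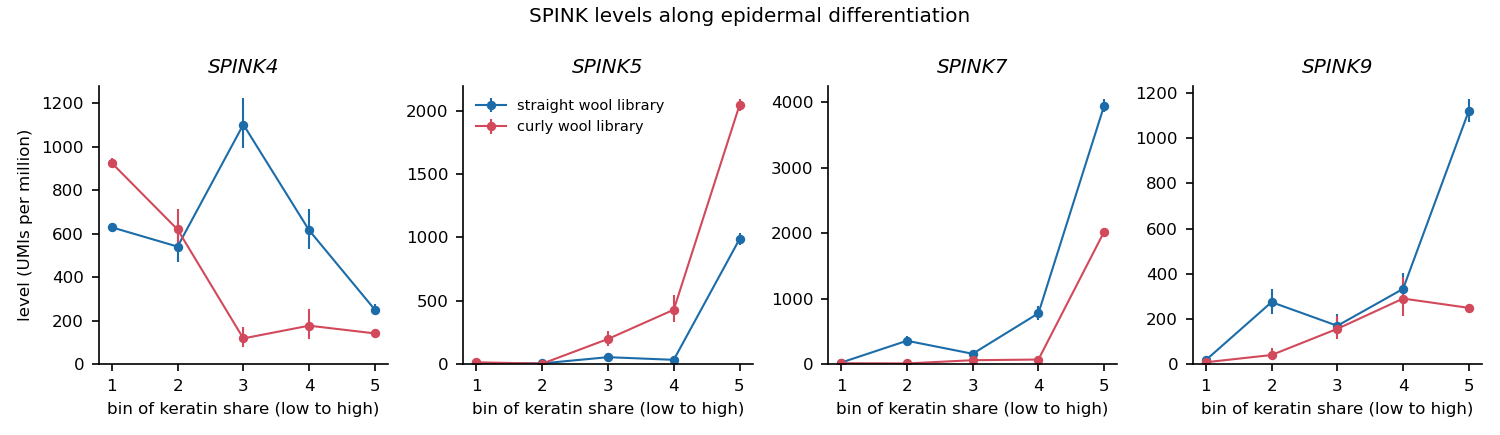
Level of each SPINK gene (CPM, points, with exact Poisson 95% intervals) in 5 bins of the keratin share of basal and suprabasal cells, from KRT5 and KRT14 rich (bin 1) to KRT1, KRT2 and KRTDAP rich (bin 5), for both libraries. SPINK4 was lower and SPINK5, SPINK7 and SPINK9 were higher in bin 5 than in bin 1 in both libraries; bins 2 to 4 hold 21 to 39 cells each.

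Late epidermal genes differed between the libraries beside the SPINK genes. All 5 late epidermis markers (FLG, LOR, CNFN, IVL and CASP14) were higher in curly suprabasal cells, and their summed level was 272 CPM in straight and 3032 in curly cells. The 5 basal markers were all lower, at 31415 and 23871, and so were the 5 cycling markers, at 673 and 319. In the late epidermis-like cluster LOR, the main protein of the cornified envelope, stood at 42.9 CPM in straight and 8174 in curly cells, FLG at 1879 and 3738 and KRT10 at 38967 and 24819. In upper follicle-like cells the 5 basal markers summed to 17770 and 6882 and the 5 upper follicle markers to 55024 and 115087. In basal cells 4 of 5 basal markers were higher in curly cells, with sums of 19600 and 27970 CPM, as were all 5 suprabasal (973 and 2842), all 5 late epidermis (36.3 and 160) and all 5 upper follicle markers (5747 and 6935). The part of these shifts in the SPINK ratios of the 3 classes was not tested. Endothelial markers summed to at most 5.72 CPM in basal, suprabasal, upper follicle-like and cluster 15 cells.

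Single cells showed which SPINK genes occur together, after thinning to 2000 UMIs. Among suprabasal cells of the straight library SPINK9 was in 47.7% of the 88 cells with SPINK7 and in 5.51% of the 508 without, and in the curly library in 28.4% of 81 and 4.61% of 499. SPINK7 was in 54.7% of the 64 straight cells with SPINK5 and 9.96% of the others, and in 33.9% of 174 and 5.42% of 406 in curly cells. In the same class the shares beside SPINK4 lay the other way. SPINK5 was in 2.30% of the 261 straight cells with SPINK4 against 17.3% of the 335 without, and in 12.7% of 118 against 34.4% of 462 in curly cells. SPINK7 was in 8.43% of straight cells with SPINK4 and 19.7% of those without, and in 5.93% and 16.0% in curly cells. For SPINK9 the shares were 6.13% and 16.1% in straight and 2.54% and 9.31% in curly cells. In upper follicle-like cells, where both genes were common, SPINK5 was in 25.2% of 254 cells with SPINK4 and 38.6% of 233 without in straight, and in 52.4% of 231 and 71.2% of 309 in curly cells. Within the late epidermis-like cluster SPINK7 was in 73.1% of the 26 straight cells with SPINK5 and 88.9% of the 9 without, the reverse order. Of the curly late cells 79 had SPINK5 and 1 did not, too few for a comparison. SPINK9 was still more common beside SPINK7 there, at 66.7% of 27 and 0% of 8 straight cells. In curly late cells these shares were 33.3% of 51 and 6.9% of 29. The part of mixed stages in the suprabasal shares was not tested. All these shares are descriptions within 1 library each.

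Over 35 pairs of cluster and library with at least 25 cells, the genes most like each SPINK gene were found by Pearson's r of log2(level + 1) among 9888 genes with at least 500 UMIs. The points share libraries, and r is given as a description. SPINK5 was most like LY6G6C (0.937), CDSN (0.903), which encodes the corneodesmosin that KLK5 and KLK7 cut, KLK7 itself (0.9), ABCA12 (0.893), the lipid carrier of lamellar granules, and GDPD3 (0.886). SPINK7 was most like LOC101102719 (0.948), KRT4 (0.850), LYPD2 (0.847), S100A7A (0.817) and SERPINA12 (0.790), an inhibitor of KLK7. SPINK9 went with KRT77 (0.831), KRT4 (0.818), KRT10 (0.816), KRT1 (0.810) and LYPD2 (0.788), and SPINK4 with GATA6 (0.867), a transcription factor of the upper follicle, BAG1 (0.839), PAGE4 (0.839), SERPINB10 (0.830) and LOC101121838 (0.820). Between members r was highest for SPINK7 with SPINK9 (0.784) and lowest for SPINK4 with SPINK5 (0.360) and SPINK5 with SPINK7 (0.367). SPINK5 had 0.633 with SPINK9, while SPINK4 had 0.485 with SPINK7 and 0.599 with SPINK9.

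Gene order was read from RefSeq's annotation of a later assembly (ARS-UI_Ramb_v3.0) than that used for alignment. There SPINK7 and SPINK9 are neighbours, SPINK5 lies on the same chromosome and SPINK4 on another. Of the 8 protein-coding genes between SPINK5 and SPINK9, SPINK7 included, 4 were in the table. Apart from SPINK7 these had low counts, with 640 UMIs for LOC101108654, 89 for LOC101116570 and 166 for LOC101116828. LOC101116828 had 65 and 85 of its UMIs in suprabasal cells, the class of SPINK7 and SPINK9. LOC101108654 had 91 UMIs in straight cluster 9 cells and 1 in the curly ones. Most of its UMIs, however, lay in the small unnamed cluster 17 (19 straight and 64 curly cells), which had too few straight cells to be compared.

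Of the kallikrein-related peptidases, KLK7 and KLK10 were highest in cluster 15 in both libraries among the 16 groups, as was SPINK5. KLK8 and KLK14 were highest in suprabasal and KLK11 in upper follicle-like cells of both libraries. The late epidermis-like cluster of resolution 0.8 had KLK7 at 2777 and 4305 CPM, above the straight but not the curly value of cluster 15, KLK5 at 1167 and 1878, above both, and KLK10 at 824 and 920, below its 2439 and 6257 in cluster 15. SPINK5 was also higher in that late cluster than in cluster 15. The list of kallikrein-related peptidases had 12 of 13 genes in the table and 9 with at least 100 UMIs. KLK7, a chymotrypsin-like enzyme that SPINK5 fragments inhibit, stood at 665 CPM in straight and 7021 in curly cluster 15 cells, at 657 and 1432 in upper follicle-like and at 202 and 825 in suprabasal cells. KLK5, the trypsin-like enzyme that activates others of the family, stood at 82.8 and 1022 in cluster 15 and at 87.6 and 363 in suprabasal cells. KLK14, a further target of SPINK5 fragments, stood at 5.72 and 13.0 in suprabasal cells. In basal cells, where SPINK4 was highest in the curly library, KLK5 lay at 5.33 and 8.01 and KLK7 at 12.7 and 47.2.

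Of the peptidase list, 4 of the 9 genes with at least 100 UMIs in suprabasal cells were past 2-fold higher in curly cells and 0 lower, with a median log2 ratio of 0.69, against 4.37% higher and 5.48% lower and a median of -0.15 over all genes of that class. In cluster 15 it was 5 of 6 higher and 0 lower with a median of 2.52, against 8.98% higher, 3.48% lower and a median of -0.06, and SPINK5 in the same cells had a ratio of -0.01. KLK6, at 16.6 and 1709 CPM, and KLK5 had the widest gaps there. The straight cells of this cluster numbered 39, and its curly cells had the lower median depth. In upper follicle-like cells 2 of 7 were higher and 0 lower, with a median of 0.28, against 3.08% higher, 5.03% lower and a median of -0.23 over all genes. Counts of this list are descriptions, since the genes were listed with results of these data known.

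A list of other epidermal proteases, which also holds the protease-activated receptor F2RL1, gave 3 of 7 higher (CASP14, TMPRSS13 and PRSS27) and 1 lower (PLAU) in suprabasal cells, with a median of -0.07, against the 4.37% higher, 5.48% lower and median of -0.15 over all genes of the class. CASP14 is a caspase, a cysteine protease, and also one of the late epidermis markers above. PRSS27, a membrane-bound protease, stood at 9.46 and 454 CPM in cluster 15. ST14, the matriptase that acts upstream of the kallikreins, was at 75.7 and 61.9 there, its highest level in both libraries. Of the junction and envelope proteins 2 of 7 were higher (CDSN and FLG) and 1 lower (DSG3) in suprabasal cells, with a median of 0.36, against the same shares and median over all genes. CDSN stood at 28.4 and 440 CPM there and at 1810 and 7257 in cluster 15, while DSG1, the desmosomal cadherin, was at 45.7 and 59.7 in suprabasal cells.

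Other inhibitors are given by the same counts. Of the list of other epidermal protease inhibitors 5 of 15 were past 2-fold higher and 0 lower in suprabasal cells, with a median of -0.06, against 4.37% higher, 5.48% lower and a median of -0.15 over all genes. Among these SERPINA12 stood at 25 and 196 CPM, CSTA, a cysteine protease inhibitor of the cornified envelope, at 42.3 and 642, and WFDC5 at 1.86 and 28.2. CST6 was highest in upper follicle-like cells, at 29582 and 97049. SPINT2, an inhibitor of membrane-bound serine proteases, stood at 584 and 582 CPM in basal, 644 and 592 in suprabasal and 426 and 436 in cluster 15 cells. Of 17 other Kazal-domain genes 9 were in the table, all with at least 100 UMIs. Of these 4 were highest in dermal papilla-like cells of both libraries. One was FST, the activin inhibitor follistatin, at 719 and 448 CPM, close to its 713 in straight basal cells and above its 299 in curly ones. In suprabasal cells 1 of 5 was higher (SMOC2) and 1 lower (FST), with a median of -0.36, against the same background.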

How the data were processed

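Single-cell RNA was measured in 1 pooled library per wool type. The authors aligned reads to Oar_rambouillet_v1.0 with STAR in Cell Ranger (3.0.2 in the submitters' processing notes), filtered cells and deposited natural log values of 1 plus UMIs scaled to 10000 per cell. UMIs were calculated back from these, and 100% of 28552149 values were whole within 0.01. Cells were integrated and clustered without the SPINK genes in Seurat 5.3.0 under R 4.3.3 (2000 variable genes, 30 dimensions, resolution 0.3, the lowest in steps of 0.1 with at least 19 clusters). A cluster took the name whose markers had the best mean log2 ratio over the other clusters (5 CPM added), if this was at least 1.0, a limit set after the clusters were seen. At least 3 of these markers also had to be detected, and no other list could have more markers among the leading genes. Shallow clusters with no marker among their leading genes stayed unnamed. Cluster 15 scored best for the companion layer of the follicle (2.97), but only 2 of those markers were detected. Levels carry exact Poisson, shares exact Clopper-Pearson and ratios exact binomial intervals. Ratios are counted past 2-fold from 100 UMIs on. A gene at 0 in a library may lie at up to 3 UMIs, or 0.0518 and 0.0386 CPM. Scripts were tested on simulated data in Python 3.11.15 with numpy 2.4.6, scipy 1.17.1 and scanpy 1.11.5 (Scrublet). The members, gene lists and markers were chosen with earlier results of these data known. Named genes are the members, the listed genes, the 5 genes most like each member, markers and leading genes. Alternatives were another resolution, no integration, a minimum of genes per cell, doublet removal, per-cell means, TMM scaling and leaving out the richest cells, the last chosen after seeing the data. Doublets were not removed in the values reported. No sequence is printed, since none was used here.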

Additional observations from a re-analysis of the deposited data

Results flagged for a closer look

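SPINK4 had differences past 2-fold in opposite directions in different cell classes of the same libraries. Its log2 ratio of curly over straight was 1.20 in basal interfollicular epidermis-like cells, -1.26 in suprabasal cells and -1.37 in dermal papilla-like cells. The difference between these classes was not tested, since there is 1 library per wool type. In dermal papilla-like cells the ratio rests on 265 straight and 41 curly UMIs, with up to 77 UMIs in 1 straight cell, and the share of cells with a UMI (7.57% and 4.61%) lay near that of endothelial-like cells (6.77% and 8.38%). With the classes kept by name, alternatives gave 1.15 to 1.31 in basal, -2.47 to -0.44 in suprabasal and -1.56 to -0.46 in dermal papilla-like cells. When basal and suprabasal cells were ordered by keratin share instead, SPINK4 kept these directions at the low and the high end. Neither end was then past 2-fold, so the size of the basal and suprabasal differences depends on how the cells are grouped.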

How the results depend on the processing

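No paired analysis was possible because each wool type is 1 pooled library. The log2 ratio of each SPINK gene was recomputed in the class with its highest level as a mean of both libraries. SPINK4 (1.20 in basal cells, highest in the curly library only, while the upper follicle, highest in the straight one, gave -0.29) gave 1.28 at resolution 0.8, 1.26 with only cells of many genes and 1.31 with TMM scaling. Without integration its highest class became the upper follicle, at -0.19, by the change of class, and no class carried the basal name then. SPINK5 (-0.01 in cluster 15) gave 0.79 at resolution 0.8, where its highest class was late epidermis-like, -0.57 without doublets, -0.61 as a mean over cells, 0.29 with TMM scaling and 0.51 without the richest cells. SPINK7 (0.06) gave -0.85 at resolution 0.8 in late epidermis-like cells (-2.23 in the cells then named suprabasal), 0.22 without integration, 0.11 with cells of many genes, -0.17 as a mean over cells, 0.23 with TMM scaling and -0.02 without the richest cells, so its direction depends on the setting. SPINK9 (-1.12) gave -2.64 at resolution 0.8 in late epidermis-like cells (-1.15 in the cells then named suprabasal), -1.01 without integration and -0.94 with TMM scaling. The other 10 values stayed within the counting interval. Where no construction is named, the cause was not tested. Thinning to 2000 UMIs lowered the shares of cells in these classes, from 50.6% and 65.4% to 31.9% and 47.6% for SPINK4, from 81.4% to 70.6% for SPINK5 in curly cells, from 27.4% and 27.7% to 14.8% and 14.0% for SPINK7, and from 21.7% and 14.0% to 11.7% and 7.93% for SPINK9, while 66.7% against 50% for SPINK5 in 28 straight cells stayed within its interval. SPINK5 in suprabasal cells ranged from 1.38 to 2.5 and in upper follicle-like cells from 0.32 to 1.35 over 7 alternatives each. Of the SPINK7 and SPINK9 UMIs 50% lay in 9 to 18 cells per library, which limits what their class levels show.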
